A study of Bos taurus with 12 samples.

Results

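Transcripts of 4 myogenic regulatory factors, MYF5, MYF6, MYOD1 and MYOG, and of the muscle cell markers DES and CHRNA1 were examined in bovine fat. The 6 genes were chosen by name, and every probe set annotated with exactly 1 gene symbol from that set was taken. This gave 7 probe sets of the 24016 on the array other than controls, 2 for MYOD1 and 1 for each other gene. The 4 probe sets of MYF6, MYOG, DES and CHRNA1 passed the filter that left out the dimmest 30% of probe sets. MYF5 and both probe sets of MYOD1 fell below it and were tested in a fit without that filter. MYF6 passed the filter through IMF, since the means of its SCF groups, 4.44 and 4.87, lay below the limit of 5.63 (log2 of signal plus 16).

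The myogenic regulatory factors are basic helix-loop-helix transcription factors that bind E-boxes together with E proteins such as TCF12 and that set up the muscle programme. MYF5 and MYOD1 commit progenitor cells to the muscle lineage and are known from activated satellite cells, the stem cells of muscle. MYOG drives myoblasts into terminal differentiation and fusion, and MYF6, also called MRF4, is the member of the family that is mainly kept in mature fibres. DES encodes desmin, the intermediate filament that links Z-discs to each other and to the membrane, and it is made by skeletal, cardiac and many smooth muscle cells. CHRNA1 encodes the alpha subunit of the muscle acetylcholine receptor, which is concentrated at the neuromuscular junction and spreads over the fibre after denervation. Muscle fibres lie directly beside intramuscular fat, and their part in the levels given below was not tested. On the cattle assembly ARS-UCD2.0 as annotated by RefSeq, MYF6 and MYF5 are neighbours, with PTPRQ on the far side of MYF6 and LIN7A on that of MYF5.

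The study sampled steers of 2 breeds that all received energy-rich feeding: Japanese Black (JB), a beef breed with strongly marbled meat, and Holstein (HS), a dairy breed. Fat was taken from the intramuscular depot (IMF) and the subcutaneous depot (SCF), so that the groups were JB IMF, HS IMF, JB SCF and HS SCF, with 3 samples each and 12 in all. The labels number the samples 1 to 3 in IMF and 4 to 6 in SCF and give no age. Separate animals for the samples of a group are not stated, nor whether the depots share animals. The p-values therefore reflect only how these arrays vary, which may be technical, and 3 arrays a group limit the precision. The series' design text names the comparison of JB with HS within each depot and that of IMF with SCF over both breeds.

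Several samples stood apart. HS IMF 3 had a median deposited signal of 58.8, against 77.6 to 88.3 in the other 11 arrays. After normalization it was the highest sample by at least 2-fold on 1618 of 24016 probe sets (6.74%), while each other sample held such a place on 4 to 237 (0.0167% to 0.987%). JB SCF 6 and HS SCF 5 had a mean log2 level of 25 skeletal muscle fibre genes of 8.40 and 8.54, where the other 4 SCF samples lay at 6.29 to 6.65. The labelled tissue was checked on 9 adipocyte markers, among them FABP4, the fatty acid carrier of fat cells, with deposited signals of 11591 to 17308. None of the 9 was listed at 0 in all samples of a group, and their summed signal was 26950 to 61262 in JB IMF, 35143 to 43208 in HS IMF, 64056 to 74063 in JB SCF and 55198 to 80196 in HS SCF. In bulk samples such as these, fewer cells of a type and less RNA per cell cannot be told apart.

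MYF6 and DES were far higher in intramuscular than in subcutaneous fat, CHRNA1 was moderately higher, and no difference between depots passed the test for MYF5, MYOD1 or MYOG. Of the 7 probe sets, 3 passed over both breeds in the fit without a filter, all higher in IMF, where 8.17% of all 24016 probe sets passed. With the filter, 11% of all 16811 tested probe sets passed, 4.66% higher and 6.33% lower. Over all 6 genes without the filter, each through its brightest probe set, the median log2 difference was 1.19, against −0.02 over all probe sets. All tests used limma with Benjamini-Hochberg adjustment over all probe sets, at an adjusted p below 0.05.

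**Figure D1:**
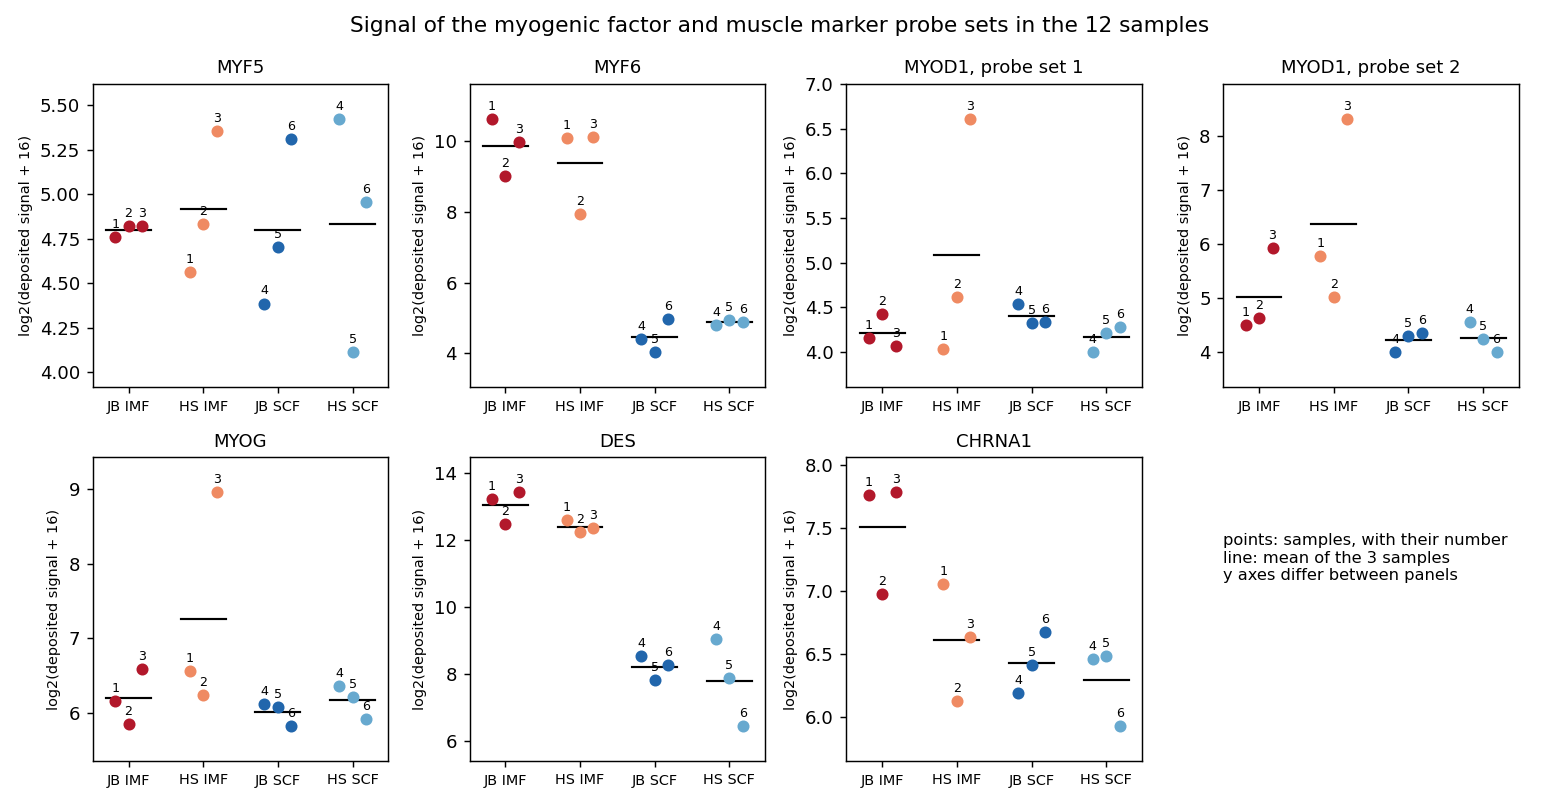
Level of each of the 7 probe sets in the 12 samples, as log2 of the deposited signal plus 16 on the y axes (ranges differ between panels), by group on the x axes. Points are samples with their numbers and lines are means of 3 samples. MYF6 and DES of all IMF samples lie above all SCF samples, and HS IMF 3 stands alone at the top for MYOD1 and MYOG.

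MYF6, the factor of mature fibres, had deposited signals of 1582, 505 and 987 in JB IMF 1 to 3 and of 1071, 230 and 1095 in HS IMF 1 to 3. In subcutaneous fat its signals were 5.23, 0.42 and 15.3 in JB SCF 4 to 6 and 12.1, 14.9 and 13.8 in HS SCF 4 to 6. Every IMF sample lay above every SCF sample, and sample 2 was the lowest of the IMF samples in each breed. Over both breeds MYF6 was higher in IMF by 5.05 ± 0.41 log2 units (SE), that is 33.1-fold, with a 95% interval of 17.9 to 61.1 (limma, Benjamini-Hochberg adjusted p = 1.06e-05). This fit had the filter that MYF6 passed only through IMF, and MYF6 passed the depot test without that filter as well. Its SCF signals were near the 16 added before the log, so that the size rests on that constant: with 1 added the log2 difference was 6.63 (limma, Benjamini-Hochberg adjusted p = 4.75e-05).

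Within the breeds the MYF6 difference between the depots was 5.33 ± 0.58 (SE) in JB (limma, Benjamini-Hochberg adjusted p = 0.000234) and 4.76 ± 0.58 in HS (adjusted p = 0.000742). Both p-values are from the filtered fit, and MYF6 passed in each breed without the filter as well. Ordered by mean log2 level, the groups were JB IMF (9.77 ± 0.76 SD, n = 3), HS IMF (9.64 ± 1.38), HS SCF (4.87 ± 0.036) and JB SCF (4.44 ± 0.46). The ranges of neighbouring groups overlapped except between HS IMF and HS SCF, where the means lay 4.76 apart.

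DES, the desmin gene, gave signals of 9543, 5727 and 11008 in JB IMF 1 to 3 and of 6271, 4839 and 5262 in HS IMF 1 to 3. The subcutaneous samples gave 359, 210 and 297 in JB SCF 4 to 6 and 511, 220 and 72.1 in HS SCF 4 to 6. The depots again did not overlap, as was the case for 3.11% of tested probe sets in this direction. Over both breeds DES was higher in IMF by 4.86 ± 0.36 log2 units (SE), that is 29.0-fold, with a 95% interval of 16.8 to 50.1 (limma, Benjamini-Hochberg adjusted p = 5.05e-06). HS SCF 6 was the lowest sample and widened the spread of its group.

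For desmin the depot difference was 4.89 ± 0.51 (SE) in JB and 4.82 ± 0.51 in HS (limma, Benjamini-Hochberg adjusted p = 0.000204 and 0.000257). The group means of log2 level were 12.97 ± 0.39 (SD, n = 3) in JB IMF, 12.58 ± 0.16 in HS IMF, 8.08 ± 0.38 in JB SCF and 7.75 ± 1.33 in HS SCF. Neighbouring groups overlapped within a depot, and the means of HS IMF and JB SCF lay 4.50 apart with no overlap. In each breed MYF6 and DES were the 2 of 7 probe sets that passed, where without a filter 2.24% of all probe sets passed in JB and 2.32% in HS. Among the 16811 tested probe sets DES ranked 45 and MYF6 51 by p over both breeds, and 64 and 58 by the size of the increase. MYF6 entered this set only through its IMF signals, so its ranks are a description and no support for a depot difference.

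CHRNA1, the receptor subunit, had signals of 202, 110 and 204 in JB IMF 1 to 3 and of 117, 53.8 and 83.6 in HS IMF 1 to 3. In SCF it had 57.0, 69.4 and 86.1 in JB SCF 4 to 6 and 72.1, 73.5 and 44.9 in HS SCF 4 to 6. All JB IMF samples lay above all SCF samples, while the HS IMF samples overlapped them, HS IMF 2 lying below 5 of 6. The difference over both breeds was 0.79 ± 0.23 (SE), 1.73-fold with a 95% interval of 1.23 to 2.45, and passed narrowly (limma, Benjamini-Hochberg adjusted p = 0.0451). In JB it was 1.06 ± 0.32 and in HS 0.52 ± 0.32, neither past the threshold (limma, Benjamini-Hochberg adjusted p = 0.123 and 0.362).

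The call of CHRNA1 over both breeds was lost in 9 of the 12 fits that left out 1 sample. By limma with Benjamini-Hochberg adjustment the adjusted p was 0.116 without JB IMF 1, 0.12 without JB IMF 3, 0.0672 without HS IMF 1, 0.073 without HS IMF 3, 0.1 without JB SCF 4 or JB SCF 5, 0.0675 without JB SCF 6, 0.0676 without HS SCF 5 and 0.111 without HS SCF 6. It was kept without JB IMF 2 (0.0269), HS IMF 2 (0.0129) or HS SCF 4 (0.0456). The difference itself stayed between 0.69 and 0.95 on the log2 scale over all 21 alternatives. Group means ran from 7.43 ± 0.41 (SD, n = 3) in JB IMF through 6.79 ± 0.55 in HS IMF and 6.37 ± 0.24 in JB SCF to 6.26 ± 0.33 in HS SCF, and each group overlapped its neighbour.

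MYOG, the differentiation factor, had signals of 55.8, 42.0 and 80.3 in JB IMF 1 to 3 and of 78.5, 59.9 and 481 in HS IMF 1 to 3. Its SCF signals were 53.5, 51.8 and 40.8 in JB SCF 4 to 6 and 66.4, 58.4 and 44.7 in HS SCF 4 to 6. Apart from HS IMF 3 the values of all groups lay between 40.8 and 80.3 and overlapped. The depot difference was 0.79 ± 0.48 (SE) with a 95% interval of −0.26 to 1.85 (limma, Benjamini-Hochberg adjusted p = 0.32), and without HS IMF 3 it was 0.24 (adjusted p = 0.404). The group means were 7.53 ± 1.93 (SD, n = 3) in HS IMF, 6.17 ± 0.35 in JB IMF, 6.15 ± 0.25 in HS SCF and 5.96 ± 0.16 in JB SCF.

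MYOD1, one of the factors that commit cells to muscle, was read by 2 probe sets, both dim. The first gave 1.90, 5.52 and 0.77 in JB IMF 1 to 3, 0.43, 8.58 and 81.8 in HS IMF 1 to 3, 7.29, 4.11 and 4.27 in JB SCF 4 to 6, and 0, 2.60 and 3.45 in HS SCF 4 to 6. The second gave 6.57, 8.75 and 44.7 in JB IMF 1 to 3, 38.7, 16.3 and 303 in HS IMF 1 to 3, 0, 3.66 and 4.45 in JB SCF 4 to 6, and 7.45, 2.97 and 0.01 in HS SCF 4 to 6. On both probe sets HS IMF 3 was the highest sample. On the second IMF lay above SCF without overlap within each breed, as was so for 14.1% of tested probe sets in JB and 7.79% in HS. The second probe set passed in neither breed (limma, Benjamini-Hochberg adjusted p = 0.855 in JB and 0.141 in HS, fit without a filter). The first differed between depots by 0.50 ± 0.40 (SE; limma, Benjamini-Hochberg adjusted p = 0.504) and the second by 1.59 ± 0.56 (adjusted p = 0.107), both in the fit without a filter.

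The MYOD1 probe sets did not give the same order of groups. On the first the group means of log2 level were 5.30 ± 1.63 (SD, n = 3) in HS IMF, 4.37 ± 0.13 in JB SCF, 4.20 ± 0.16 in JB IMF and 4.13 ± 0.11 in HS SCF. On the second they were 6.65 ± 2.19 in HS IMF, 4.99 ± 0.81 in JB IMF, 4.27 ± 0.31 in HS SCF and 4.19 ± 0.16 in JB SCF, and on both probe sets each group overlapped its neighbour. The second probe set passed the depot test in 3 of 19 alternatives: with 1 added before the log (3.48), without HS IMF 2 (2.00) and without both HS IMF 3 and HS SCF 4 (1.06), at limma Benjamini-Hochberg adjusted p = 0.0473, 0.0293 and 0.0422. Without HS IMF 3 alone it differed by 0.97 (limma, Benjamini-Hochberg adjusted p = 0.0563).

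MYF5, the other commitment factor and a dim probe set, had signals of 11.1, 12.2 and 12.2 in JB IMF 1 to 3 and of 7.67, 12.5 and 24.9 in HS IMF 1 to 3. In SCF it had 4.90, 10.1 and 23.6 in JB SCF 4 to 6 and 26.9, 1.30 and 15.1 in HS SCF 4 to 6. All groups overlapped, and in deposited signals the highest and the lowest sample both belonged to HS SCF, while after normalization HS IMF 3 was the highest. The depot difference was 0.09 with a 95% interval of −0.47 to 0.64 (limma, Benjamini-Hochberg adjusted p = 0.881, fit without a filter). In order, the group means of log2 level were 4.98 ± 0.47 (SD, n = 3) in HS IMF, 4.82 ± 0.69 in HS SCF, 4.79 ± 0.055 in JB IMF and 4.77 ± 0.46 in JB SCF. In all 12 samples MYF5 stayed below the limit of 5.63, unlike its neighbour MYF6, which was above it in the 6 IMF samples.

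**Figure D2:**
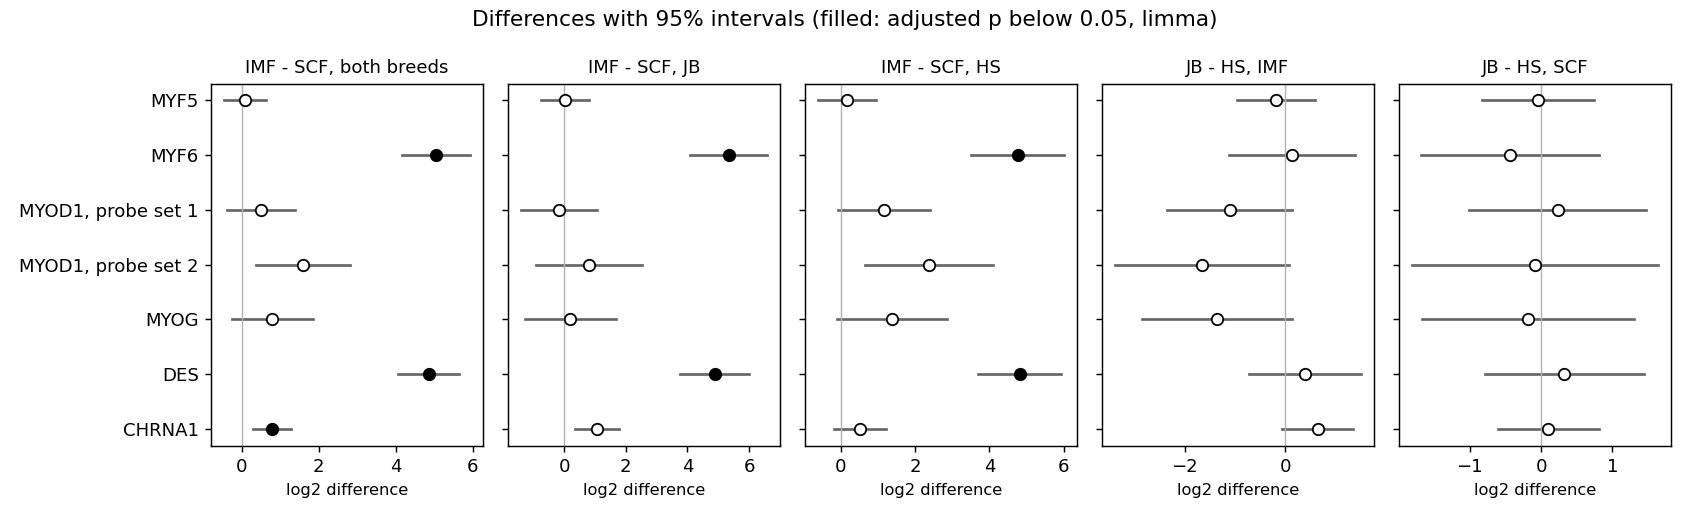
Log2 differences of the 7 probe sets in 5 comparisons (x axes, whose ranges differ between panels), with 95% intervals as lines; filled points passed at an adjusted p below 0.05 by limma. MYF6 and DES lie near 5 in each of the 3 depot comparisons, and no point is filled in the comparisons of breeds.

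Between the breeds none of the 7 probe sets passed in either depot. In IMF, 4 of all 16811 tested probe sets passed (0.0238%) and 1720 had an unadjusted p under 0.05; in SCF the numbers were 1 (0.00595%) and 599. In IMF, the JB minus HS differences were 0.64 ± 0.32 (SE) for CHRNA1 (95% interval −0.06 to 1.35), 0.39 ± 0.51 for DES (−0.73 to 1.51) and 0.14 ± 0.58 for MYF6 (−1.12 to 1.39), at limma Benjamini-Hochberg adjusted p = 0.494, 0.776 and 0.934. These intervals leave room for differences of about the size that CHRNA1 showed between depots. JB IMF 1 and 3 had the highest CHRNA1 signals, while JB IMF 2 and HS IMF 1 lay close together at 110 and 117.

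MYOG and MYOD1 had negative breed differences in IMF: −1.36 ± 0.68 (SE) for MYOG, −1.10 ± 0.57 for the first MYOD1 probe set and −1.66 ± 0.80 for the second (limma, Benjamini-Hochberg adjusted p = 0.494, 0.512 and 0.493). Without HS IMF 3 these differences were −0.26, −0.17 and −0.42 (limma, Benjamini-Hochberg adjusted p = 0.885, 0.907 and 0.879). MYF5 differed by −0.19 ± 0.36.

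In SCF, the breed differences were −0.43 ± 0.58 (SE) for MYF6, 0.33 ± 0.51 for DES, 0.10 ± 0.32 for CHRNA1, −0.18 ± 0.68 for MYOG, 0.24 ± 0.57 and −0.09 ± 0.80 for MYOD1 and −0.04 ± 0.36 for MYF5. Each was smaller than its standard error, and the adjusted p was 1 for all by limma with Benjamini-Hochberg adjustment. Whether the breed difference itself changed with depot was tested by an interaction term, which no member passed (limma, Benjamini-Hochberg adjusted p = 0.987 to 0.997). No probe set of the whole array passed it (0 of 16811), and 359 had an unadjusted p under 0.05. The interaction was 0.57 ± 0.81 for MYF6, 0.06 ± 0.73 for DES and 0.54 ± 0.46 for CHRNA1.

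In normalized values HS IMF 3 was the highest sample on 5 of the 7 probe sets. On the scale of signal plus 16 it exceeded the next sample 9.12-fold on MYOG, 5.68-fold on the first MYOD1 probe set and 9.30-fold on the second, but only 1.16-fold on MYF6 and 1.03-fold on MYF5. DES was highest in JB IMF 3 and CHRNA1 in JB IMF 1. The genes with HS IMF 3 at least 2-fold above all other samples included MEF2A and TCF12, partners of the myogenic factors, and KLF5 (3 of 8 activators and partners tested). They included 0 of 25 fibre genes, 0 of 10 inhibitors and 0 of 6 satellite cell markers. Over all 16811 tested probe sets HS IMF 3 held such a place on 7.33%, and lists this short can hold 0 at that share. ACHE, the acetylcholinesterase of the synapse, was at 198 in HS IMF 3 and at 29.7 to 58.5 in the others. Of 5 erythroid genes, 3 (HBM, ALAS2 and HBA) were also highest in HS IMF 3 by 2-fold. The part that the array-wide shift of this sample plays in its MYOG and MYOD1 levels was not tested.

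**Figure D3:**
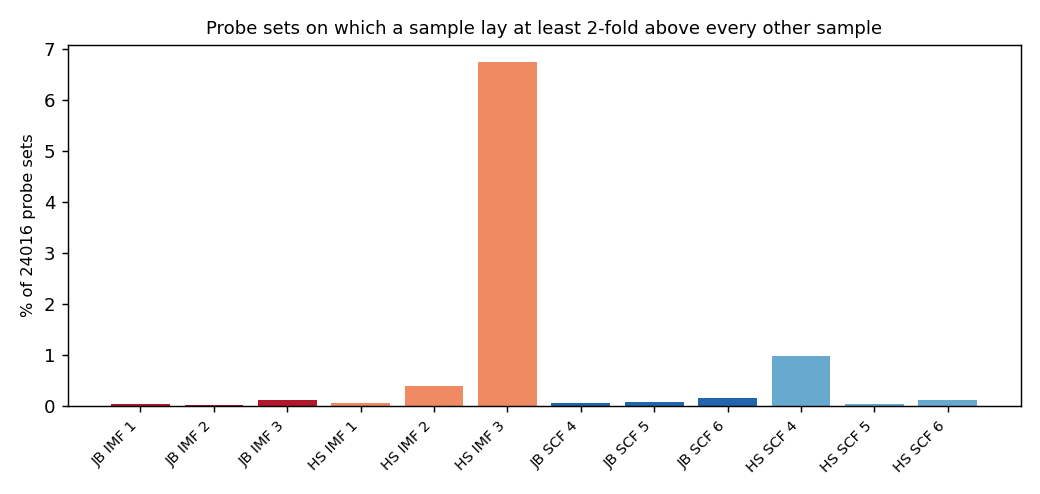
Share of the 24016 probe sets (y axis, percent) on which each of the 12 samples (x axis, coloured by group) lay at least 2-fold above every other sample in normalized values. The bar of HS IMF 3 reaches 6.74%, and the next, that of HS SCF 4, reaches 0.987%.

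The partners and inhibitors of the myogenic factors were then described as lists, each gene through its brightest tested probe set. Their counts stand beside the 11% of all tested probe sets that passed over both breeds, 4.66% higher and 6.33% lower in IMF. Of 10 activators and partners on the array, 8 were tested and 3 were higher in IMF over both breeds, with a list median of 0.91 against −0.06 for all tested probe sets. ANKRD1, a stretch-responsive protein of the titin complex, was higher by 7.16 ± 0.60 (SE), KLF5, a zinc finger factor, by 2.19 ± 0.58 and TCF12, the E protein that pairs with MYOD1 and MYOG, by 1.08 ± 0.32 (limma, Benjamini-Hochberg adjusted p = 1.44e-05, 0.0314 and 0.0481). KLF5 and TCF12 did not pass in JB (limma, Benjamini-Hochberg adjusted p = 0.3 and 0.758) or in HS (adjusted p = 0.128 and 0.0673). HS IMF 3 held their highest signals, 1465 and 1646, against 118 to 607 and 451 to 759 in the other IMF samples. Their differences without that sample were not tested. ANKRD1 signals were 477 to 9727 in IMF and 0.03 to 20.4 in SCF, with HS IMF 2 lowest in IMF as for MYF6. ITGA7, the laminin receptor subunit of muscle, differed by 1.08 ± 0.36 without passing (adjusted p = 0.0742), and MYMK, the fusion protein myomaker, fell below the filter.

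Of 10 inhibitors tested, ZEB1 alone passed, a zinc finger repressor that competes for E-boxes, higher in IMF by 1.23 ± 0.27 (SE; limma, Benjamini-Hochberg adjusted p = 0.0137), and the list median was 0.13. A count of 1 in 10 is near the 11% of all tested probe sets that passed. ID3, which sequesters E proteins, differed by 0.50 ± 0.27, SNAI1, an E-box repressor, by −0.75 ± 0.30 and BHLHE40, another helix-loop-helix repressor, by −0.40 ± 0.17 without passing. MSTN, myostatin, the secreted inhibitor of muscle growth, fell below the filter.

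Of 14 satellite cell markers, 7 were on the array through a probe set with 1 gene symbol, and 6 were tested. PAX7, CDH15 and CALCR were not among those tested. Of the 6, 4 had a positive difference, but 0 passed as higher in IMF and 1 passed as lower. Over all tested probe sets 4.66% passed as higher and 6.33% as lower. Counts of 0 and 1 in a list this short are near those shares. VCAM1, an adhesion molecule also made by vessels and stromal cells, fell by 1.66 ± 0.43 (SE) on the log2 scale (limma, Benjamini-Hochberg adjusted p = 0.0297). MET, the receptor of hepatocyte growth factor, differed by 0.70 ± 0.21 (adjusted p = 0.0512) and SDC3, a heparan sulfate proteoglycan, by 0.48 ± 0.28. ITGA7, which is also in this list, differed by 1.08 ± 0.36 (limma, Benjamini-Hochberg adjusted p = 0.0742). The list median was 0.41. Its mean log2 level ranged from 7.73 to 8.15 in IMF and from 7.24 to 8.25 in SCF.

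At the neuromuscular junction 1 of 6 tested genes passed, where 11% of all tested probe sets passed. A count of 1 in a list this short is near that share. CHRNB1, the beta subunit that assembles with CHRNA1, had signals of 1204, 698 and 1368 in JB IMF 1 to 3, 962, 504 and 538 in HS IMF 1 to 3, 340, 369 and 235 in JB SCF 4 to 6 and 496, 331 and 275 in HS SCF 4 to 6. All IMF samples lay above all SCF samples, and the difference was 1.45 ± 0.24 (SE; limma, Benjamini-Hochberg adjusted p = 0.00254). COLQ, the anchor of synaptic acetylcholinesterase, differed by −0.26 ± 0.22, ERBB3, a neuregulin receptor, by 0.21 ± 0.19 and ACHE by 0.53 ± 0.40, none past the threshold. The other subunits CHRND and CHRNE differed by 0.21 and 0.14 without passing, CHRNG fell below the filter, and the list median was 0.21.

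Of the 12 desmin partners and costamere genes, 7 passed, all higher in IMF, with a list median of 2.18. They included MYOT, the Z-disc protein myotilin (7.55 ± 0.42 SE), FLNC, the muscle filamin (5.49 ± 0.45), LDB3, a Z-disc PDZ protein (3.30 ± 0.33), and DTNA, alpha-dystrobrevin of the dystrophin complex (3.26 ± 0.40), with limma Benjamini-Hochberg adjusted p = 3.79e-07, 1.28e-05, 6.2e-05 and 3e-04. CRYAB, the chaperone of desmin filaments, was higher by 2.47 ± 0.37 (adjusted p = 0.00129). VIM, the intermediate filament of mesenchymal cells, differed by −0.40 ± 0.17 without passing.

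**Figure D4:**
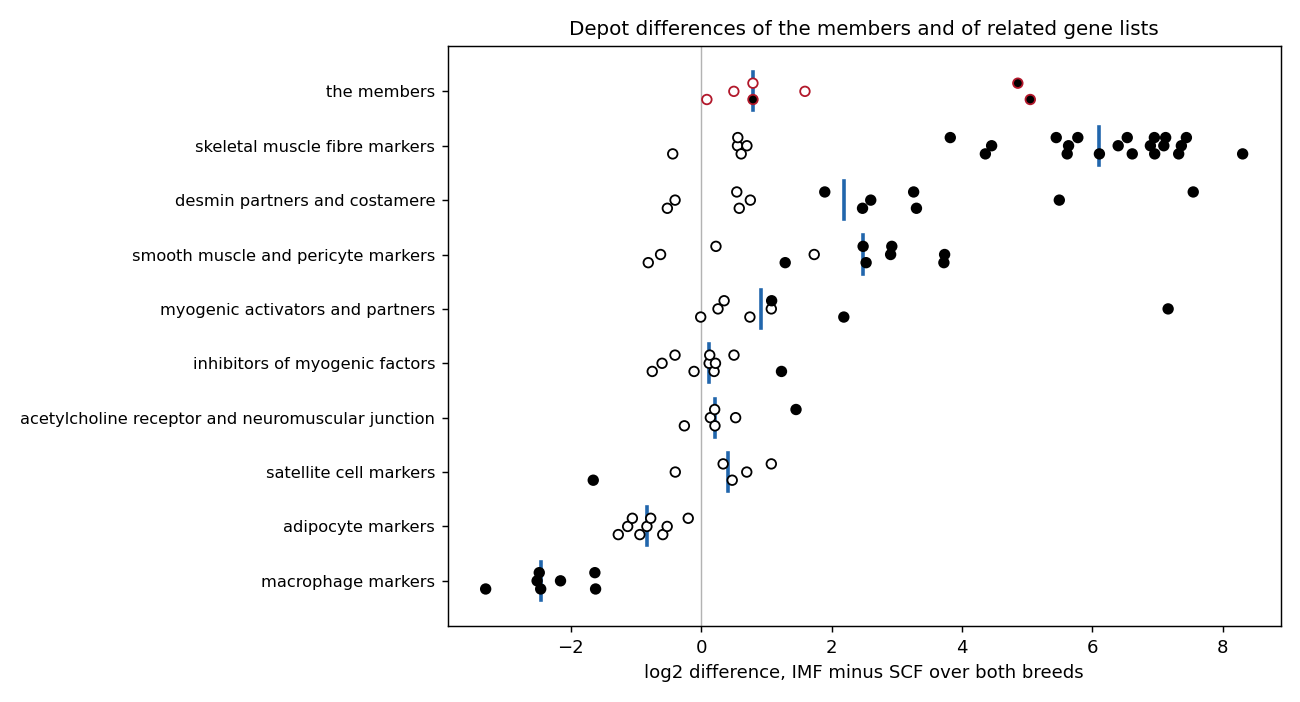
Log2 difference of IMF minus SCF over both breeds (x axis) for the 7 member probe sets and for the genes of 9 related lists; points are genes, filled where the adjusted p was below 0.05 by limma, and bars are list medians. The fibre markers lie furthest to the right with a median of 6.11, and the satellite cell markers lie around 0.41.

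Most genes in a list of skeletal muscle fibre markers were higher in IMF, as were MYF6 and DES. CHRNA1 was higher by only 0.79 on the log2 scale, a call that most fits leaving out 1 sample lost. Of 35 genes in that list 25 were tested, and 20 were higher and 0 lower in IMF, with a median of 6.11. TNNT3, fast troponin T, was higher by 7.10 ± 0.33 (SE), MYOZ1, a Z-disc protein of fast fibres, by 6.95 ± 0.33, ACTN3, fast alpha-actinin, by 6.89 ± 0.29 and ATP2A1, the fast calcium pump, by 5.45 ± 0.21, all with an adjusted p of 1.52e-07 or less (limma, Benjamini-Hochberg). The summed fibre signal was 138812 to 208213 in JB IMF, 94364 to 184648 in HS IMF, 16108 to 26390 in JB SCF and 11740 to 38795 in HS SCF. In SCF the highest median signals of the list were those of TPM1, TPM3, MYH7 and CKM, at 5772, 2692, 2633 and 2539. Their IMF medians were 7591, 2112, 3727 and 3456. MYL2 and TNNT1 had medians of 0.02 and 0.1 in SCF against 9870 and 6471 in IMF. None of the 25 was listed at 0 in all samples of a group. The part of the fibre transcripts in the depot differences of the members was not tested.

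Smooth muscle cells also make desmin, and most genes in a list of their markers and those of pericytes moved the same way. Of its 11 tested genes, 9 had a positive difference, and 7 passed as higher and 0 as lower in IMF, with a median of 2.48. They were led by CNN1, calponin (3.72 ± 0.32 SE), ACTA2, smooth muscle actin (2.91 ± 0.29), MYH11, smooth muscle myosin (3.73 ± 0.40) and TAGLN, transgelin (2.92 ± 0.32). Median deposited signals were lower in IMF than in SCF for MCAM (3162 against 6508), PDGFRB (324 against 605) and KCNJ8 (134 against 158). The summed signal of the 11 genes was 34645 to 63844 in JB IMF, 14165 to 33429 in HS IMF, 11251 to 15341 in JB SCF and 8542 to 10786 in HS SCF. The mean log2 level of the list overlapped between the breeds in IMF, at 10.59 to 11.29 in JB and 9.65 to 10.66 in HS. Skeletal and smooth muscle as sources of the desmin signal were not told apart.

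Markers of other cells differed as well. All 7 macrophage markers were lower in IMF, with a median of −2.46 (VSIG4 −3.31 ± 0.46 SE, C1QA −2.48 ± 0.33), as were 2 of 9 fibroblast and progenitor markers, DPP4 and PDGFRA, and 2 of 3 Schwann cell markers, MBP and S100B. SOX10, the other Schwann cell marker, differed by 0.09 ± 0.20 without passing. Of 9 adipocyte markers 0 passed, with a median of −0.83, and 0 of 6 endothelial and 0 of 5 erythroid markers did. None of the 9 adipocyte markers had a positive difference, over both breeds or in either breed. Among 3 brown and beige adipocyte markers, COX7A1, a respiratory chain subunit also made in muscle, was higher by 1.73 ± 0.32 (limma, Benjamini-Hochberg adjusted p = 0.00543). CIDEA went the other way by −1.57 ± 0.73 and PPARGC1A differed by 0.64 ± 0.55, neither past the threshold. No gene of any of the 14 lists passed in the comparisons of the breeds. The part of these cell types in the members' differences was not tested.

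**Figure D5:**
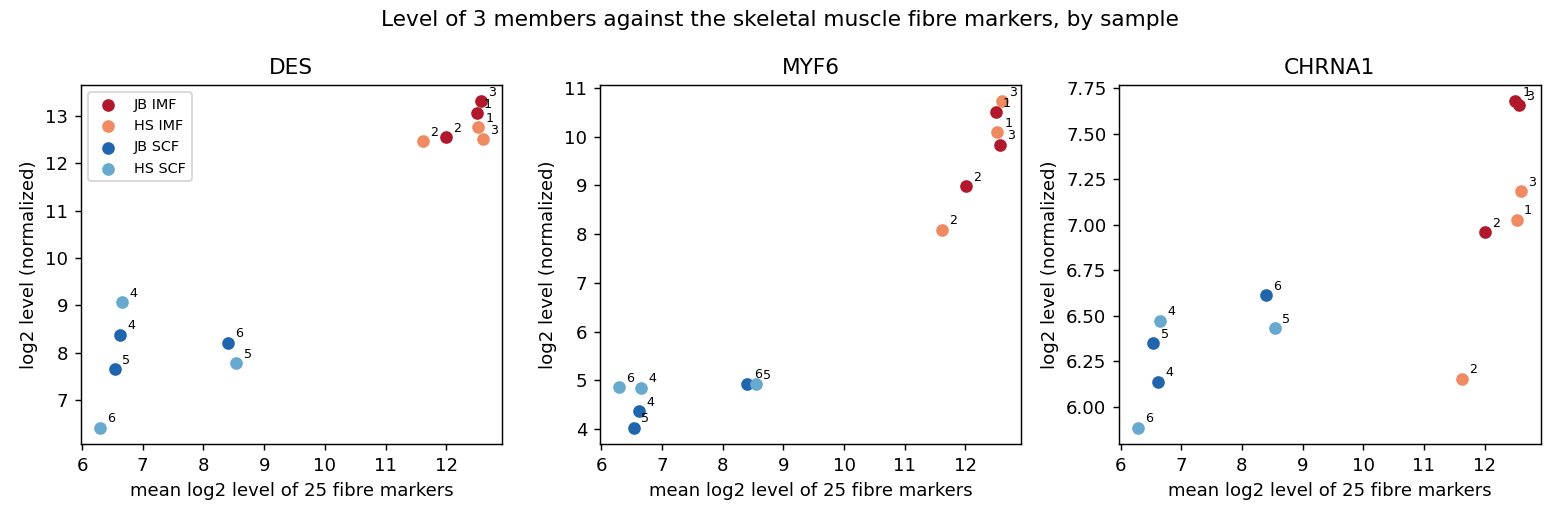
Normalized log2 level of DES, MYF6 and CHRNA1 (y axes, ranges differ) against the mean log2 level of the 25 fibre markers (x axis) in the 12 samples, coloured by group and numbered. MYF6 of HS IMF 2 and JB IMF 2 lies below that of the other IMF samples, as does their fibre mean. JB SCF 6 and HS SCF 5 are the highest SCF samples for MYF6, by a small margin among signals near background. For DES they lie among the other SCF samples.

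Within IMF the samples with the lowest fibre mean, HS IMF 2 at 11.62 followed by JB IMF 2, also had the lowest MYF6 signals, 230 and 505, while the fibre mean of the other IMF samples was 12.50 to 12.60. HS IMF 2 was the lowest of the 6 IMF samples for 18 of 25 fibre genes and for MYF6, DES and CHRNA1. In SCF, JB SCF 6 and HS SCF 5, whose fibre means of 8.40 and 8.54 exceeded those of the other SCF samples, also had the highest MYF6 signals, 15.3 and 14.9, against 13.8, 12.1, 5.23 and 0.42 in the others. Their DES signals of 297 and 220 lay within the SCF range of 72.1 to 511. These samples were singled out after their values were seen. Without both of them the depot difference was 5.18 for MYF6 and 4.90 for DES, both past the threshold (limma, Benjamini-Hochberg adjusted p = 0.000182 and 0.000151), and 0.90 for CHRNA1, which did not pass (adjusted p = 0.102).

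The named genes whose levels were most like those of the members were sought among 7804 genes by Pearson's r over the 12 samples, as a description only. The depots form separate clusters of samples for MYF6 and DES, and all points share arrays and normalization. MYF6 was most like TCAP, the titin cap protein (r = 0.994), STYXL2 (0.992), CAND2 (0.990), ADCY2 (0.989) and KLHL41, a sarcomere-associated kelch protein (0.989). DES was most like TPM2, beta-tropomyosin (r = 0.987), JPH1, a junction protein of the sarcoplasmic reticulum (0.980), MYPN, myopalladin (0.974), TMOD4, a tropomodulin of muscle (0.974), and KLHL41 (0.973). CHRNA1 was most like ARHGAP24 (r = 0.954), PLCL2 (0.940), RET (0.937), PSTPIP2 (0.937) and RCAN2 (0.933).

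With the group means removed, so that only the spread among the 3 samples of a group counted, the 5 genes most like DES were DEPP1 (r = 0.934), FIBIN (0.904), SARNP (0.899), SLC22A5 (0.894) and DVL1 (0.882), and none of its first set was among them. For MYF6 the first 5 were DUSP13 (r = 0.968), STYXL2 (0.959), AHCYL2 (0.944), ADCY2 (0.943) and PSTPIP2 (0.933), so that STYXL2 and ADCY2 were in both of its sets. For CHRNA1 they were PSTPIP2 (r = 0.951), RET (0.947), FRMD3 (0.926), SPATA24 (0.923) and KLHL41 (0.922). MYOG was most like CNOT2 (r = 0.984), EDN2 (0.979), EDC4 (0.977), ACHE (0.968) and RNF113A (0.968) over the 12 samples, with HS IMF 3 far above all others for MYOG and ACHE. The first MYOD1 probe set was most like NLRP5 (r = 0.986) and the second like ITGB1BP2, a muscle integrin-binding protein (0.977). HS IMF 3 lay far above the next sample on both, at log2 levels of 7.16 against 4.65 and of 9.14 against 5.92. The r values of MYOD1 may thus rest largely on that array, and likeness without it was not tested. For MYF5 the most like gene was TRIM8 at a lower r of 0.867.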

How the data were processed

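Biotin-labelled cRNA from total RNA was hybridized to an Affymetrix bovine array, per the labels' protocols, and the software named per the submitters' processing notes was Affymetrix Expression Console 1.1 and GCOS 1.1.1. The authors deposited linear intensity values for 24128 probe sets. How these were summarized and normalized is not given in the sources used here. Members and gene lists were chosen with earlier results of these data known. Of 24016 probe sets without 112 controls, 13292 carried 1 gene symbol, 86 several and 10638 none, and symbols were updated through the Entrez identifier for 13263.

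Signals were turned into log2(signal + 16) and quantile normalized, and the dimmest 30% by mean level were dropped, leaving 16811. Differences on this scale understate the change of dim genes. Linear models with 4 group means were fitted in R 4.3.3 by lmFit and eBayes of limma 3.58.1, leaving 8 residual degrees of freedom. The threshold was an adjusted p below 0.05 by the Benjamini-Hochberg method, over all probe sets of a comparison. Dim members were tested in the same fit without the filter. Lists used the brightest tested probe set of a gene, and up to 4 genes with the smallest p over both breeds were named from each list with a gene past the threshold, and other genes named were chosen after their values were seen. For likeness the 5 named genes with the highest r were taken for each member. The procedure was tested on simulated data. Alternatives were another pseudocount (1), no filter or a 50% filter, median centring, values as deposited, a trended and robust variance, array weights, only the compared groups, a replicate block, each sample left out, and HS IMF 3 with HS SCF 4 left out. Leaving out JB SCF 6 with HS SCF 5 was added after seeing the data. Figures were drawn with Python 3.11.15 and matplotlib 3.10.9.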

Additional observations from a re-analysis of the deposited data

How the results depend on the processing

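MYF6 and DES passed the depot test in all 21 alternatives over both breeds, with log2 differences of 4.77 to 6.63 and 4.52 to 5.20, and in all 22 within each breed. CHRNA1 passed over both breeds in 9 of 21. Beside the samples named above, it was lost in the values as deposited (0.70, limma Benjamini-Hochberg adjusted p = 0.0671) and without both HS IMF 3 and HS SCF 4 (0.75, adjusted p = 0.0592), and the cause was not tested. In JB alone it passed with array weights (1.24, adjusted p = 0.000521) and with only the compared groups (1.06, adjusted p = 0.0463). No member passed a breed comparison or the interaction in any alternative. Sample numbers shared by the breeds did not pair the samples: deviations of same-numbered samples correlated at −0.278 to 0.117, and with a replicate block 0 members passed in either depot, while the count of all probe sets in IMF was 2 in place of 4.

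Differences that changed sign were all of members that did not pass, and the cause was not tested. For MYF5 this was so in JB between depots with array weights (−0.0023), in HS between depots with JB SCF 6 and HS SCF 5 both left out (−0.21), between breeds in IMF without both HS IMF 3 and HS SCF 4 (0.071), between breeds in SCF with a pseudocount of 1 (0.27), array weights (0.21) and without both HS samples (0.27), and in the interaction with these JB and HS samples left out (0.47). The second MYOD1 probe set changed sign between breeds in SCF with array weights (0.032) and without both HS samples (0.085), and the DES interaction with array weights (−0.062) and without both HS samples (−0.63). With each sample left out in turn, MYF5 ranged from −0.097 to 0.24 between depots over both breeds, −0.20 to 0.26 in JB, −0.21 to 0.47 in HS, −0.38 to 0.071 between breeds in IMF, −0.41 to 0.27 in SCF and −0.46 to 0.22 for the interaction. MYF6 ranged from −0.64 to 0.68 between breeds in IMF and from −0.20 to 1.12 for the interaction, DES from −0.34 to 0.98 between breeds in SCF and from −0.59 to 0.73 for the interaction, the second MYOD1 probe set from −0.22 to 0.085 and CHRNA1 from −0.086 to 0.22 between breeds in SCF.

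The count of all probe sets past the threshold between depots over both breeds was 1848, and 3154 with array weights, 799 without JB SCF 6 and HS SCF 5, and 942 to 2346 with each sample left out. Between breeds it was 4 in IMF, and 0 with array weights or only the compared groups, 1 with a pseudocount of 1, and 0 to 7 with each sample left out. In SCF it was 1, and 12 with array weights and 0 with a pseudocount of 1. The samples per group, 3, and signals near background limit MYF5, MYOD1 and, in SCF, MYF6.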
